A study of Mus musculus with 8 samples.

Results

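Imprinted genes that act in fetal growth were followed in mouse embryonic fibroblasts with and without the Hippo pathway kinase gene Lats2. The set held 10 genes (H19, Dlk1, Mest, Peg3, Grb10, Plagl1, Ndn, Sgce, Peg10 and Zim1) of 27745 gene names on the array, chosen by name: every non-control probe that the scanner files assign to one of them was taken, which gave 18 probes. The cells were embryonic fibroblasts of C57BL/6J mice, grown in serum without treatment, and each of 3 independent litters (112, 116 and 121) gave 1 Lats2-/- and 1 Lats2+/+ culture, with 1 clone name per culture in the labels. RNA of both genotypes of a litter was labelled with Cy3 and Cy5 and hybridised together, with the dyes swapped on the partner array, on 2, 2 and 4 arrays for litters 112, 116 and 121, so that there were 8 arrays, 6 RNA extracts and n = 3 litters. Litters 112 and 116 shared 1 slide and litter 121 had another, so litter 121 and its slide cannot be told apart. The part of Lats2 removed by the deletion was not given in the sources used here.

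Imprinted genes are transcribed mainly from the allele of 1 parent, a state that is set by DNA methylation laid down in the germ line. Many of them lie in clusters in which 1 control region governs several neighbours. Several paternally expressed members, such as Igf2, Mest, Peg3 and Plagl1, favour fetal growth, whereas maternally expressed ones, such as H19 and Grb10, restrain it. The question was whether these genes moved together within a litter when Lats2-/- cells were set against their Lats2+/+ littermates.

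Lats2 itself had 4 kept probes. The probe at chr14:56676512-56676571, minus strand, in mm8, was lower in Lats2-/- cells of every litter, by log2 ratios of -1.33, -1.05 and -0.56, whereas the other 3 ranged from -0.70 to -0.18 over litters 112 and 116 and from 0.80 to 1.17 for litter 121. Whether any of them lies in the deleted part was not given, so the probes do not settle the genotype of litter 121. The study checked the loss of the Lats2 protein in its fibroblasts by western blotting, but the sources used here name no litter for that blot. Directions in litter 121 therefore rest on the labels, Lats2-/- names the extract labelled so, and counts over litters or extracts that turn on them are followed by the count without litter 121, with its sign turned or with its extracts exchanged.

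Probes were kept when 2 or more extracts of the same genotype, of the 3 there were, gave a signal well above background, which left 22644 probes. Of the 18 probes of the 10 genes, 16 were kept, and they covered 9 genes. Zim1 was not kept: its probe (chr7:6280569-6280628, minus strand, mm8) was well above background in 1 of 16 array channels. Peg3 passed through the Lats2-/- extracts, since its Lats2+/+ signal was above background on most arrays of litter 121 only. Where a gene had several kept probes, the one with the highest mean signal stands for it below, and in all 6 genes with more than 1 kept probe the probes had the same sign in each of the 3 litters.

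RefSeq (GRCm38.p6) promoter windows of 300 bases around the annotated start were at hand for 7 of the 10 genes. Those of the 5 with a difference of at least 4-fold in some litter are shown, since CG pairs are where methylation of an imprinted promoter can lie. CG, which reads the same on both strands, is in capitals and the rest is in lower case, 5′ to 3′ on the strand of the gene. Where a gene had several windows, the one with the most CG is given. Methylation was not measured in these samples, and the windows are a description of the loci. The windows were chr12:109452573-109452872, plus strand, for Dlk1, chr6:30737800-30738099, plus strand, for Mest, chr7:6730370-6730669, minus strand, for Peg3, chr10:13090582-13090881, plus strand, for Plagl1, and chr11:12037371-12037670, minus strand, for Grb10.
Dlk1: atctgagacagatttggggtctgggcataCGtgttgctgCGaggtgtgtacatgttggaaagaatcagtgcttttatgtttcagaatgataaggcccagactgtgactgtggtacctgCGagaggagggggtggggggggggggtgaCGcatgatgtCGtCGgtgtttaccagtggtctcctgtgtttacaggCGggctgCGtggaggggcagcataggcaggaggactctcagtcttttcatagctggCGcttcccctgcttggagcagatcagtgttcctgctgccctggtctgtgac
Mest: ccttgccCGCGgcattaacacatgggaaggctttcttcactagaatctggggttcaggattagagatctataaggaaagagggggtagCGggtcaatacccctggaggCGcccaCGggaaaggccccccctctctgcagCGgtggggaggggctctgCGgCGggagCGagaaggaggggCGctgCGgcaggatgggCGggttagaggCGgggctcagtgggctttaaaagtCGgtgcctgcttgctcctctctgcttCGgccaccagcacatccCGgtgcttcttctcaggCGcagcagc
Peg3: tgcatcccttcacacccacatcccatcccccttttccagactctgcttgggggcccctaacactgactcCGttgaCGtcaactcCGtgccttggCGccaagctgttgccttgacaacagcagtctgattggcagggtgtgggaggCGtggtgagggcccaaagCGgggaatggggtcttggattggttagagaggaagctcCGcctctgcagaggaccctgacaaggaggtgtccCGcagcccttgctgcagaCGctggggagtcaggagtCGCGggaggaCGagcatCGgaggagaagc
Plagl1: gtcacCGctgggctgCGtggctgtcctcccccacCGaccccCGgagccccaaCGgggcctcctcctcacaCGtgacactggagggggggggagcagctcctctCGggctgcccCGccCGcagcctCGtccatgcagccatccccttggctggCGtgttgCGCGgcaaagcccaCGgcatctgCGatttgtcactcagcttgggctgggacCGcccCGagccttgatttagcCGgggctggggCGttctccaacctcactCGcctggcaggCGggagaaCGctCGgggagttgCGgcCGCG
Grb10: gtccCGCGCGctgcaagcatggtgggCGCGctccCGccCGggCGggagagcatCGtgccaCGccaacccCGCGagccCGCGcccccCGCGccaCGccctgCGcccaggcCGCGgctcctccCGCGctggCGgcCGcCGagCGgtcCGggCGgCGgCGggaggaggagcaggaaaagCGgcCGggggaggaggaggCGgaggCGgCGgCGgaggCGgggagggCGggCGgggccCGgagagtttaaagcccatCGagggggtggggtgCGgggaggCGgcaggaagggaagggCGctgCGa

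The Grb10 window shown held 45 CG, and 1.93% of all 32851 windows held as many or more. The other Grb10 window held 9 (reached by 45.8% of windows), and a Mest window that is not shown held 8 (48.65%). Plagl1 had 26 (reached by 16.9% of windows), Mest 17 (31.4%), Peg3 13 (37.9%) and Dlk1 9 (45.8%), against a median of 7 over all windows. H19, Sgce and Peg10 are named without a window.

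The imprinted genes did not share 1 direction in any litter. In litter 112, 6 of the 9 measured genes were higher and 3 were lower in Lats2-/- cells, in litter 116 these counts were 5 and 4, and in litter 121 they were 7 and 2. Over all kept probes 50.9%, 50.1% and 49.7% were higher in litters 112, 116 and 121. The median log2 ratio of the 9 genes was 0.15, 0.32 and 0.91 in the same order, beside 0.0051, 0.00068 and -0.0015 over all kept probes. With a stricter filter on dim probes, which left 7 genes, these medians were 0.42, -0.51 and 0.29, and with the processed signals of the scanner software that of litter 112 was 0.47. H19 counts as higher in litter 112 at 0.03, with 1 array of each sign. The other 8 genes had 6 different patterns of sign over the 3 litters: Mest and Peg10 shared one, Peg3 and Sgce another, and Grb10, Dlk1, Plagl1 and Ndn each had their own.

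**Figure D1:**
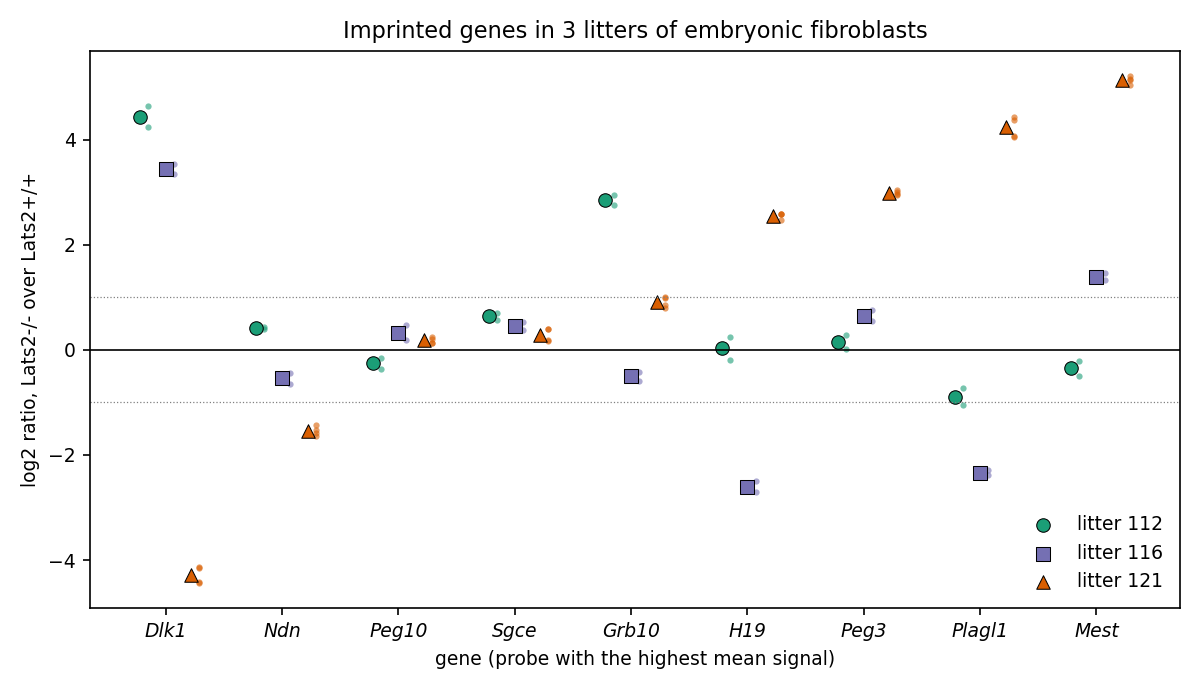
Log2 ratio of Lats2-/- over Lats2+/+ (vertical axis) for each of 9 imprinted genes (horizontal axis, ordered by litter 121). Large symbols are litter means, small dots beside them are single arrays, and dotted lines mark 2-fold. Dlk1 sits at 4.43 and 3.44 in litters 112 and 116 and at -4.29 in litter 121, and Mest and Plagl1 are at the other end in litter 121, at 5.13 and 4.23.

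The differences within a litter were large for most of these genes. A difference of at least 2-fold in some litter was found for 7 of the 9 genes, where 13.3% of all kept probes had one. In litter 112 it was 2 genes, both higher (Dlk1 and Grb10; 3.77% of all kept probes passed 2-fold in either direction). In litter 116 it was 4, with Dlk1 and Mest higher and H19 and Plagl1 lower (background 7.71%). In litter 121 it was 6, with Mest, Plagl1, Peg3 and H19 higher and Dlk1 and Ndn lower (background 6.09%). H19, Dlk1 and Plagl1 passed 2-fold upwards in 1 litter and downwards in another, which 1.83% of all kept probes showed. In each of the 3 genes litter 121 was one side of it: over litters 112 and 116 no gene did so, and with litter 121 turned only Mest did (1.89% of all kept probes). The arrays of a litter stood close together: the largest SD between arrays of 1 litter was between 0.12 and 0.31 for the 9 genes, and every array had the sign of its litter mean apart from 1 array of H19 in litter 112.

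**Figure D2:**
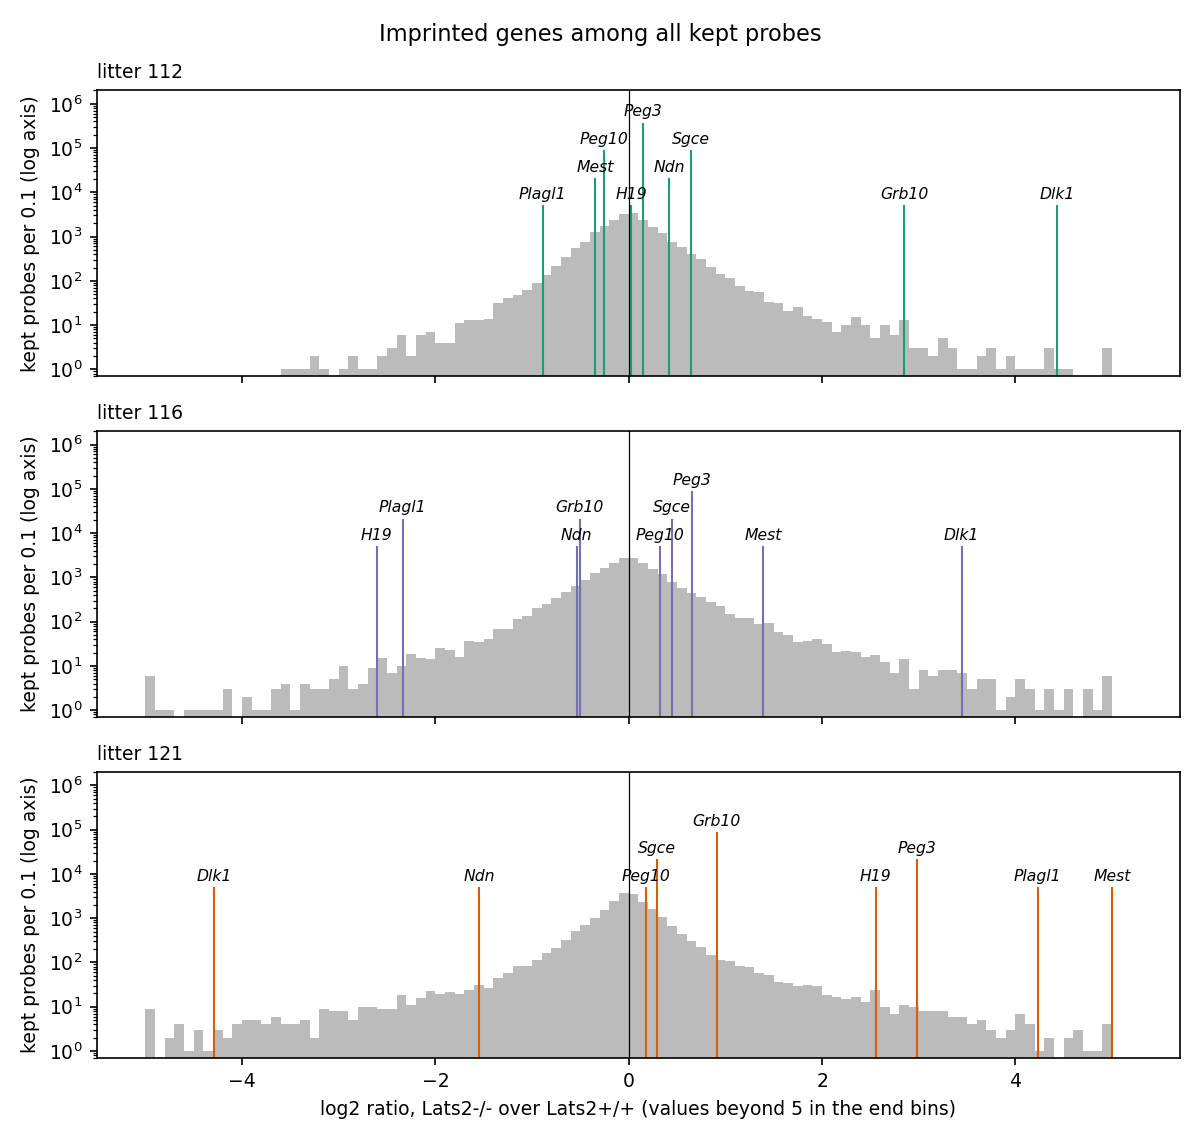
Grey bars count all 22644 kept probes (vertical axis, log scale) by log2 ratio of Lats2-/- over Lats2+/+ (horizontal axis, bins of 0.1), 1 panel per litter, and coloured lines mark the imprinted genes. In litter 112 most genes lie near 0 with Grb10 and Dlk1 far to the right, and in litter 121 the genes lie on both sides.

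With litters of opposite sign, few of the genes stood apart from 0 over litters. In limma's test of the 3 litter ratios against 0, none of the 9 genes passed an adjusted p of 0.05, and neither did any of the 22644 kept probes (0%). At an unadjusted p under 0.05, 1 of the 9 genes passed (Sgce), where 6.84% of all kept probes did. Without litter 121 there were 3 (Dlk1, Plagl1 and Sgce; 6.43% of all kept probes), and with it turned 2 (Dlk1 and Plagl1; 4.77%). The same sign in all 3 litters was found for 2 of the 9 genes, Peg3 and Sgce, both higher in Lats2-/- cells, where 29.7% of all kept probes had 1 sign. Peg3 was kept through its Lats2-/- extracts alone. Litters 112 and 116 by themselves shared a sign in 4 of the 9 genes (Dlk1, Peg3, Plagl1 and Sgce; 54.2% of all kept probes), and with litter 121 turned the 2 genes of 1 sign were Dlk1, higher, and Plagl1, lower (24.4% of all kept probes). An exact sign-flip test of 3 litters cannot give a two-sided p below 0.25. These p-values measure the spread between 3 pairs of cultures.

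Among the paternally expressed growth genes, Dlk1, which encodes a transmembrane protein of the Delta family made by precursor cells and shed from their surface, had the widest spread over litters as labelled. Its probe (chr12:109908264-109908323, plus strand, mm8) had log2 signals of 13.07, 11.84 and 8.63 in Lats2-/- cells (litters 112, 116 and 121, in this order throughout) and of 8.63, 8.39 and 12.91 in Lats2+/+ cells. Lats2-/- cells of litters 112 and 116 and Lats2+/+ cells of litter 121 were high and the other extracts were low, so the genotypes overlapped. The log2 ratios were 4.43 ± 0.28, 3.44 ± 0.13 and -4.29 ± 0.16 (SD between arrays), or 21.6-fold and 10.9-fold higher and 19.5-fold lower in Lats2-/- cells. The second probe gave 4.05, 2.72 and -3.64. The mean was 1.20 ± 4.77 (SD, n = 3 litters; limma adjusted p = 0.918), and the SD over litters lay at percentile 99.996 of all kept probes. With litter 121 turned the SD was 0.53, at percentile 79.8. The mean within the first slide alone, that of litters 112 and 116, was 3.94.

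Mest, which encodes a protein of the alpha/beta hydrolase fold made in mesodermal tissue, was measured by 1 probe (chr6:30698289-30698348, plus strand, mm8). Its log2 signals were 6.19, 8.97 and 14.74 in Lats2-/- extracts and 6.54, 7.58 and 9.60 in Lats2+/+ extracts of litters 112, 116 and 121. Both genotypes were highest in litter 121 and lowest in litter 112, where the Lats2-/- signal was not well above background on either array. The Lats2+/+ signal of litter 112 exceeded it at least 1.28-fold, and the log2 ratios of litters 116 and 121 were 1.39 ± 0.09 and 5.13 ± 0.07 (SD between arrays), or 2.62-fold and 35.1-fold higher in Lats2-/- cells. The mean of the 3 measured ratios was 2.06 ± 2.80 (SD, n = 3 litters; limma adjusted p = 0.754), and it was 0.52 over litters 112 and 116 alone and 3.26 over litters 116 and 121.

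Peg3, which encodes a zinc finger protein, had 2 kept probes. The brighter one (chr7:6311815-6311874, minus strand, mm8) had log2 signals of 6.52, 7.24 and 11.44 in Lats2-/- extracts and 6.37, 6.59 and 8.45 in Lats2+/+ extracts. Litter 121 was the highest for both genotypes, and the others were near background, with no Lats2+/+ array of litter 112 above it and 1 of 2 in litter 116. The excess in Lats2-/- cells of litter 112 was at least 1.11-fold, and the log2 ratios of litters 116 and 121 were 0.65 ± 0.14 and 2.99 ± 0.04 (SD between arrays). Over litters they averaged 1.26 ± 1.51 (SD, n = 3 litters; limma adjusted p = 0.744). Without litter 121 the mean was 0.40. It was 2.41 with the processed signals of the scanner software, where the unadjusted limma p was 0.0052. The remaining Peg3 probe, at chr7:6326319-6326377, minus strand, in mm8, was not kept, since only the Lats2-/- signal of litter 121 was above background there.

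Plagl1, a zinc finger transcription factor that halts the cell cycle, was measured by 2 probes. The brighter one (chr10:12821672-12821731, plus strand, mm8) had log2 signals of 8.99, 11.54 and 15.84 in Lats2-/- extracts and 9.88, 13.87 and 11.61 in Lats2+/+ extracts. The Lats2-/- extract of litter 121 and the Lats2+/+ extract of litter 116 were the highest, and both extracts of litter 112 were the lowest. The log2 ratios were -0.89 ± 0.22, -2.34 ± 0.06 and 4.23 ± 0.20 (SD between arrays), which is 5.05-fold lower in litter 116 and 18.8-fold higher in litter 121. The other probe gave -0.33, -1.80 and 3.37, and the mean of the brighter one was 0.33 ± 3.45 (SD, n = 3 litters; limma adjusted p = 0.972). It was -1.61 without litter 121, 1.67 without litter 116 and 0.95 without litter 112.

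Ndn, a member of the MAGE family that is expressed in postmitotic neurons and restrains growth, was lower in Lats2-/- cells of litter 121. Its probe (chr7:62227911-62227970, plus strand, mm8) had log2 signals of 8.56, 6.92 and 8.56 in Lats2-/- extracts and 8.14, 7.46 and 10.10 in Lats2+/+ extracts, so the Lats2+/+ extract of litter 121 stood above the others. The log2 ratios were 0.42 ± 0.03, -0.54 ± 0.14 and -1.54 ± 0.09 (SD between arrays), and they averaged -0.56 ± 0.98 (SD, n = 3 litters; limma adjusted p = 0.797). Without litter 121 the mean was -0.061, and without litter 112 it was -1.04. The genotypes overlapped.

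Sgce and Peg10 stand side by side on chromosome 6 and share a control region. Sgce, which encodes epsilon-sarcoglycan of the cell membrane, was the steadiest of the 9 genes. Its brighter probe (chr6:4624457-4624516, minus strand, mm8) had log2 signals of 13.17, 13.34 and 13.20 in Lats2-/- extracts and 12.53, 12.89 and 12.91 in Lats2+/+ extracts. All Lats2-/- extracts were above all Lats2+/+ extracts, and Sgce was the 1 gene of 9 whose genotypes did not overlap, a separation that 6.15% of all kept probes had in either direction. With the extracts of litter 121 exchanged Sgce overlapped and Dlk1 was the 1 gene that did not (4.44% of all kept probes). The log2 ratios were 0.64 ± 0.10, 0.45 ± 0.11 and 0.29 ± 0.12 (SD between arrays), and the second probe gave 0.65, 0.42 and 0.26. The mean was 0.46 ± 0.18 (SD, n = 3 litters; limma adjusted p = 0.711), a difference of 1.37-fold, and its unadjusted limma p was 0.020. That p was 0.056 with the processed signals and 0.053 with the slide as a block, and it lay above 0.05 without litter 112 (0.097) or litter 116 (0.069). With litter 121 turned the mean was 0.27 and the unadjusted limma p 0.306.

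Peg10, a gene derived from a retrotransposon and needed in the placenta, was weakly expressed by the measure of its probe (chr6:4709867-4709926, plus strand, mm8). The log2 signals were 6.83, 6.83 and 7.04 in Lats2-/- extracts and 7.08, 6.51 and 6.86 in Lats2+/+ extracts, above background on every array. The ratios of -0.25 ± 0.14, 0.32 ± 0.21 and 0.18 ± 0.05 (SD between arrays) reached at most 1.25-fold and averaged 0.08 ± 0.30 (SD, n = 3 litters; limma adjusted p = 0.929). That mean was 0.36 with the processed signals, 0.25 without litter 112 and -0.037 without litter 116. Peg10 and Sgce had the same sign in litters 116 and 121 and opposite signs in litter 112.

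Of the maternally expressed genes, H19, which yields a long non-coding RNA, ranged most between cultures. Its brighter probe (chr7:142385254-142385313, minus strand, mm8) had log2 signals of 6.68, 11.50 and 13.07 in Lats2-/- extracts and 6.66, 14.11 and 10.51 in Lats2+/+ extracts. The Lats2+/+ extract of litter 116 was the highest, the Lats2-/- extract of litter 121 came next, and both extracts of litter 112 were near the bottom of the scale. The log2 ratios were 0.03 ± 0.31, -2.61 ± 0.15 and 2.55 ± 0.05 (SD between arrays), or 6.09-fold lower in litter 116 and 5.87-fold higher in litter 121, while litter 112 showed a difference smaller than the spread of its arrays. The second probe gave 0.06, -4.33 and 3.78. The mean was -0.01 ± 2.58 (SD, n = 3 litters; limma adjusted p = 0.999), so litters 116 and 121 cancelled.

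Grb10, an adaptor protein that restrains insulin and IGF receptor signalling, differed most in litter 112. Its brightest probe (chr11:11830965-11831024, minus strand, mm8) had log2 signals of 12.53, 11.95 and 13.30 in Lats2-/- extracts and 9.68, 12.46 and 12.39 in Lats2+/+ extracts, and the Lats2+/+ extract of litter 112 was the 1 low value. The log2 ratios were 2.85 ± 0.14, -0.51 ± 0.13 and 0.91 ± 0.10 (SD between arrays), that is 7.21-fold higher in litter 112. The other kept probes gave 1.63, -0.50 and 0.61 and 1.08, -0.50 and 0.41, with the same signs and smaller differences in both litters where it was higher. Its average was 1.09 ± 1.69 (SD, n = 3 litters; limma adjusted p = 0.769), and it was 0.20 without litter 112 and 1.88 without litter 116.

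The wild-type cultures of the 3 litters differed widely among themselves. Over the 3 Lats2+/+ extracts the signal of 1 probe spanned at least 4-fold for 7 of the 9 genes (all but Sgce and Peg10), where 3.7% of all kept probes spanned as much. The span on the log2 scale was 7.45 for H19, 4.52 for Dlk1, 3.99 for Plagl1, 3.06 for Mest, 2.78 for Grb10, 2.64 for Ndn and at least 2.08 for Peg3, whose lowest Lats2+/+ signal was not above background. It was 0.38 for Sgce and 0.58 for Peg10, near the median of 0.47 over all kept probes. Over the 3 Lats2-/- extracts 5 of the 9 genes spanned at least 4-fold (background 5.11%), from 4.44 for Dlk1 to at least 8.54 for Mest, whose lowest Lats2-/- signal was not above background. With the extracts of litter 121 exchanged, 5 of the 9 genes spanned as much over the Lats2+/+ extracts (5.55% of all kept probes) and 4 over the Lats2-/- extracts (3.1%). Dlk1 then spanned 0.24 and 1.23, and Ndn 1.099 and 3.18, over Lats2+/+ and Lats2-/- extracts. Levels were put on a common scale over the arrays, and those of litter 121 came from the other slide.

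**Figure D3:**
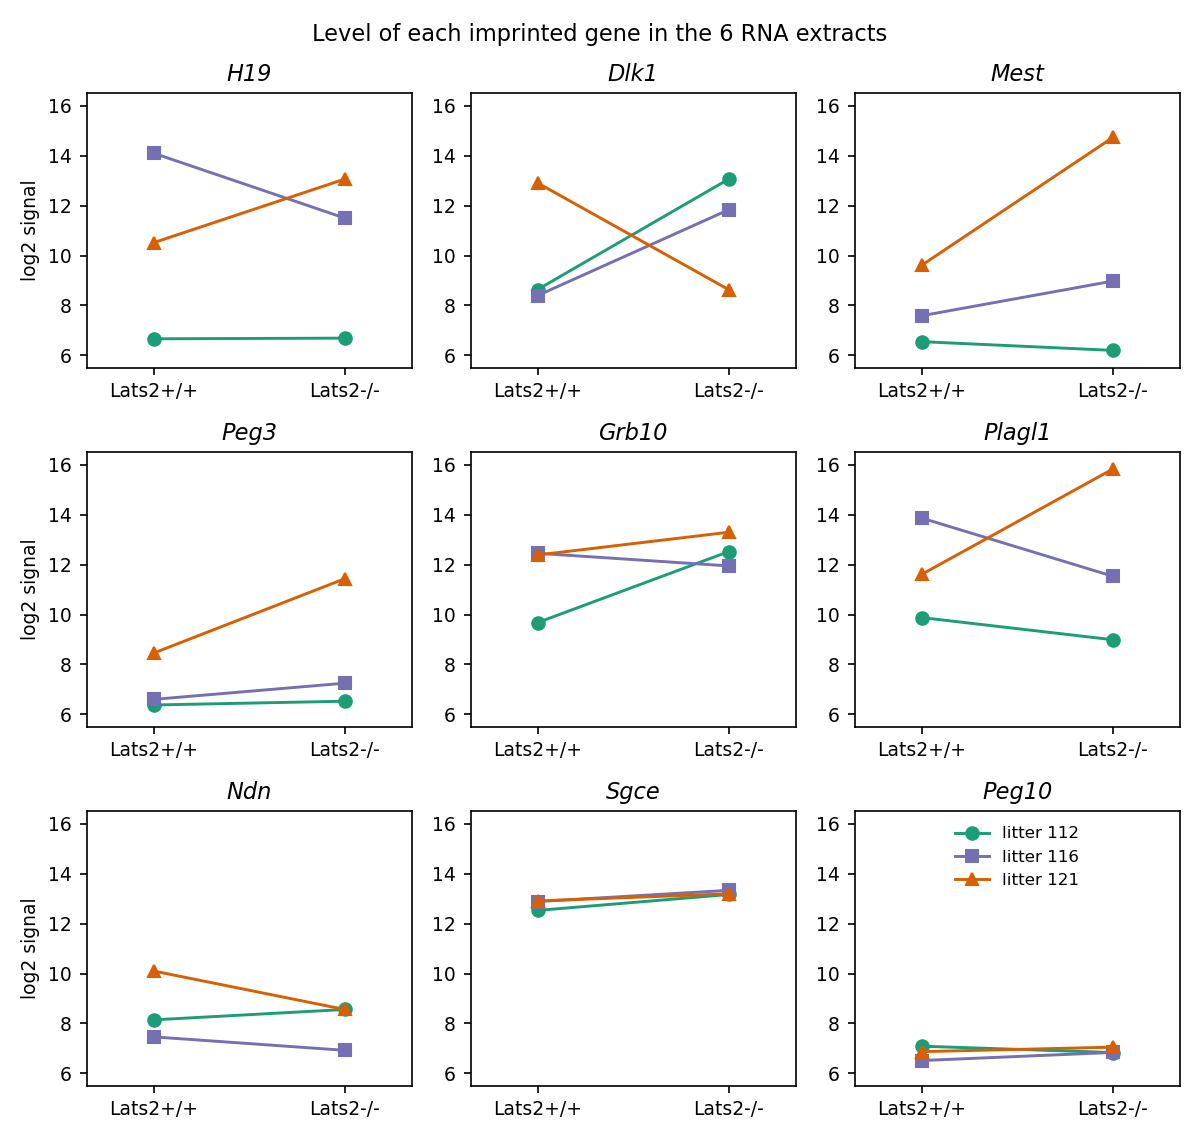
Log2 signal (vertical axis) of the 9 imprinted genes in Lats2+/+ and Lats2-/- extracts (horizontal axis), 1 panel per gene, with a line joining the extracts of a litter. Dlk1 rises from Lats2+/+ to Lats2-/- in litters 112 and 116 and falls in litter 121, both extracts of litter 112 lie low for H19, and Sgce is the gene whose Lats2-/- extracts all exceed its Lats2+/+ extracts.

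Neighbours in a domain were set side by side to see whether genes under 1 control region moved together. In the Dlk1-Dio3 domain of chromosome 12, Dlk1 is expressed from the paternal allele and the non-coding RNAs Meg3, Rian and Mirg from the maternal one. All 4 had the same signs, higher in Lats2-/- cells of litters 112 and 116 and lower in those of litter 121. The share of all kept probes with these signs was not counted, and genes outside the domain had them too. Among the cell type markers listed below, Col3a1 (0.13, 3.70 and -3.42) and Sox9 (0.71, 1.41 and -3.71) had them, whereas Fn1 and Vim did not. Meg3 ratios were 2.83, 1.49 and -2.71 on the log2 scale, in the same order. For Rian the excess in litter 112 was at least 3.04-fold and for Mirg at least 2.11-fold, as their Lats2+/+ signals there did not clear the background. In litters 116 and 121 the log2 ratios were 0.68 and -3.63 for Rian and 0.98 and -2.62 for Mirg. The other Dlk1 probe and another Meg3 probe (1.93, 1.47 and -2.63) were above background in both cultures of each litter and had these signs too. The remaining 2 Meg3 probes had 0.12 each in litter 116 and -1.73 and -2.50 in litter 121, while the other Rian probe had 0.37 in litter 116 and was at least 2.46-fold lower in litter 121, where no Lats2-/- array cleared the background. In litter 112 the Lats2+/+ signal of these 3 probes was not above background on any array, and the Lats2-/- signal was above it for 1 of the Meg3 probes.

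H19 and Igf2, which share an enhancer and are expressed from opposite alleles, did not have a common sign in litter 116. Igf2, a fetal growth factor, was near background in both cultures of litter 112 and had log2 ratios of 0.43 in litter 116, where H19 was at -2.61, and 3.53 in litter 121, where H19 was at 2.55. Its log2 signal was 14.29 in the Lats2-/- extract of litter 121, above 10.75 in its littermate and above both extracts of litter 116 (8.47 and 8.04). The Lats2-/- cells of litter 121 held the highest signal of Igf2, Mest, Peg3, Plagl1 and Grb10 among the 6 extracts, and the second highest of H19, Sgce and Peg10. Dlk1 was low in them (8.63, against 12.91 in the littermate), and Ndn was highest in the Lats2+/+ cells of litter 121. The share of all kept probes that were highest in that Lats2-/- extract was not counted, and litter 121 was on the other slide.

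Snrpn, a splicing protein gene of the cluster that holds Ndn, had log2 ratios of 0.82, 1.28 and -0.13 and shared the sign of Ndn in litters 112 and 121. Peg12 of the same cluster had 0.25, -0.04 and -1.42, with the signs of Ndn in each litter, and Mkrn3, a ring finger protein gene, had 0.02, -0.06 and -0.09. Ube3a, a ubiquitin ligase gene there, had -0.43, 0.18 and 0.05, and Snurf, which shares a transcript with Snrpn, had 0.39, 0.66 and -0.11. Copg2, a coat protein gene beside Mest, had 0.22, -0.22 and 0.08 in litters 112, 116 and 121, while Mest reached 35.1-fold. Magel2, next to Ndn, and Ddc, next to Grb10, had no kept probe, and neither did Zim1 beside Peg3.

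**Figure D4:**
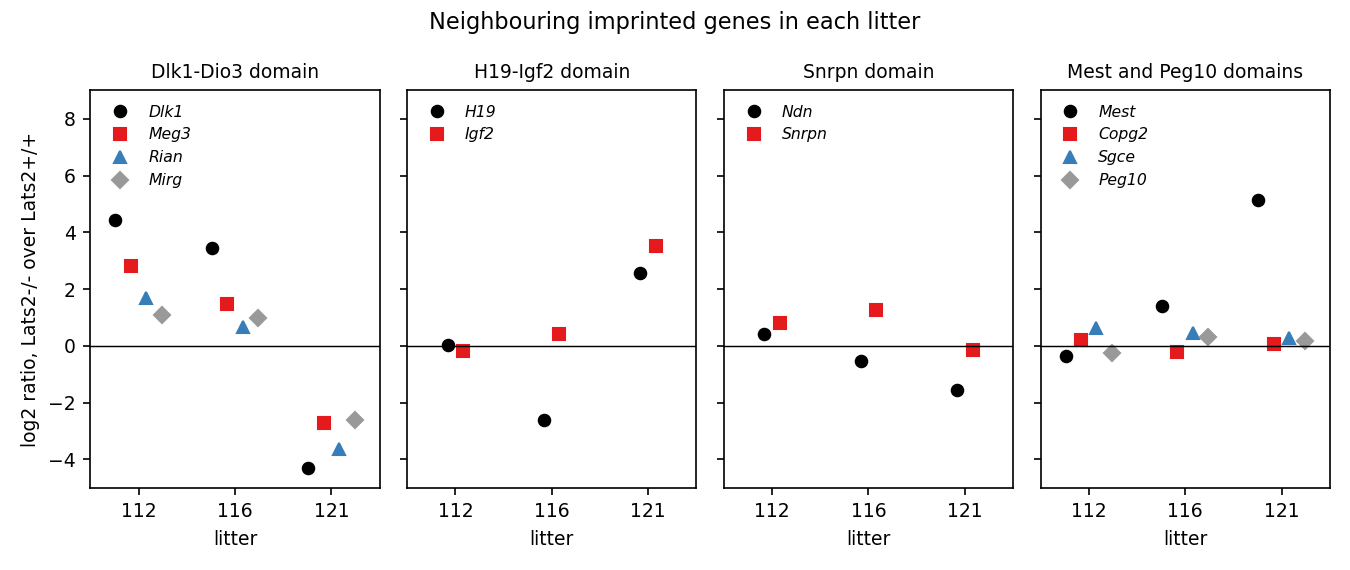
Log2 ratio of Lats2-/- over Lats2+/+ (vertical axis) by litter (horizontal axis) for imprinted genes that lie near each other, 1 symbol per gene. Dlk1, Meg3, Rian and Mirg lie above 0 in litters 112 and 116 and below 0 in litter 121, whereas H19 and Igf2 part in litter 116 and Copg2 stays near 0 while Mest reaches 5.13. Values of Mest, Rian, Mirg and Igf2 in litter 112 include signals not well above background.

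A list of 63 further genes held to be imprinted in some tissue of the mouse was read in the same way, and 36 of them had a kept probe. Whether they are imprinted in these fibroblasts was not measured. In litters 112, 116 and 121, 23, 20 and 19 of these 36 were higher in Lats2-/- cells, with median log2 ratios of 0.20, 0.14 and 0.04. At least 2-fold in some litter were 14 of 36 (38.9%, against 13.3% of all kept probes), and 7 of 36 had 1 sign in all 3 litters (4 higher and 3 lower, or 19.4% against 29.7%). With litter 121 turned it was 12 of 36 (9 higher and 3 lower, or 33.3% against 24.4%). None passed an adjusted p of 0.05 in limma. At an unadjusted p under 0.05 there were 3 (8.33%), a share near the 6.84% of all kept probes, and with litter 121 turned there were 6 (background 4.77%). The 3 were Cd81, a membrane tetraspanin, with log2 ratios of 0.23, 0.94 and 0.55, Gab1, a docking protein of receptor tyrosine kinases, with 0.19, 0.65 and 0.68, and Atp10a, a phospholipid flippase, with -0.80, -0.42 and -1.03. Their limma adjusted p was 0.711 each. Besides the genes of the Dlk1 and H19 domains, a difference of at least 4-fold in some litter was found for Dcn, the matrix proteoglycan decorin, with 3.26, 6.22 and -1.94, and for Slc38a4, an amino acid transporter, with 0.80, 4.39 and -3.76. Both had the signs of Dlk1 in every litter, as did some of the cell type markers below (Col3a1, Pdgfra and Sox9) and not others (Fn1 and Vim). The low signals of Slc38a4 were near background. They were 6.32 in Lats2+/+ cells of litter 116 (above it on 1 of 2 arrays) and 6.23 in Lats2-/- cells of litter 121 (2 of 4).

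The labelled cell type was checked against its markers. All 10 fibroblast markers were kept, and they moved between litters as well: 7, 8 and 1 of 10 were higher in Lats2-/- cells of litters 112, 116 and 121, with median log2 ratios of 0.14, 1.95 and -0.95. In litter 121 Pdgfra, Thy1 and S100a4 were at -4.96, -3.66 and -3.61 beside Dlk1 at -4.29. Fn1, Vim and Pdgfrb were near 0 there, at 0.07, -0.07 and -0.14. The log2 of the summed signal of all 10 fibroblast markers was 17.9 to 19.1 in Lats2-/- and 18.5 to 19.2 in Lats2+/+ extracts. Of the neural markers 3 of 6 were kept, and 0, 3 and 2 of them were higher in litters 112, 116 and 121 (medians -0.84, 0.77 and 0.40), with a summed log2 signal of 10.0 to 13.1 in Lats2-/- and 9.87 to 11.05 in Lats2+/+ extracts. In litter 121 Nes was at 4.10, Tubb3 at 0.40 and Map2 at -0.09, and Stmn2, which was not kept, was at 3.76, above background on 4 of 4 Lats2-/- and 1 of 4 Lats2+/+ arrays of that litter and on no other array. Sox2 and Gfap were above background on no array.

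Among the other lists, 3 of 5 adipocyte markers were kept, and 3, 0 and 2 of them were higher in litters 112, 116 and 121 (medians 2.66, -0.34 and 0.85), with summed log2 signals of 8.86 to 11.8 in Lats2-/- and 9.21 to 9.58 in Lats2+/+ extracts. Of 5 chondrocyte markers 4 were kept (medians 0.14, 0.76 and -0.20), with sums of 10.9 to 11.3 and 9.90 to 11.9. Of 7 skeletal muscle markers only Actc1 was kept (-0.41, 3.37 and 0.55), with sums of 13.6 to 15.2 and 10.8 to 14.7, and Myog, Myf5, Des and Myh3 were above background on no array. Of 6 epithelial markers only Krt19 was kept (2.42 and 1.83 in litters 112 and 121, and at least 1.20-fold higher in litter 116, where no Lats2+/+ array cleared the background), with sums of 8.70 to 9.72 and 8.67 to 8.83, and Epcam and Cldn4 were above background on no array. Cdh1 was above background on the 4 Lats2-/- arrays of litter 121 alone, where it was at least 2.08-fold higher. Krt8 and Krt18 were above background on both Lats2+/+ arrays of litter 116 alone. Endothelial (1 of 5 kept), blood and macrophage (4 of 7) and hepatocyte (0 of 6) markers had low signals. Their sums in Lats2-/- and Lats2+/+ extracts were 8.43 to 8.64 and 8.41 to 8.49, 8.999 to 9.16 and 9.05 to 9.15, and 8.60 to 8.69 and 8.61 to 8.68, and Pecam1, Cdh5, Ptprc and Alb were above background on no array. The endothelial Kdr and the hepatocyte Afp were above background on the 4 Lats2-/- arrays of litter 121 alone, at least 1.41-fold and 1.23-fold higher. All 12 proliferation genes were kept, and 1, 0 and 10 of them were higher in litters 112, 116 and 121, with medians of -0.60, -0.62 and 0.33 and sums of 14.5 to 15.0 and 14.3 to 15.7. The part of these lists in the values of the imprinted genes was not tested, and in these bulk extracts fewer cells of a type and less RNA per cell cannot be told apart.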

How the data were processed

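Per the labels, cRNA made from total RNA of Lats2-/- and Lats2+/+ embryonic fibroblasts was hybridised to two-colour Agilent mouse 44K arrays in dye swap. The authors scanned the arrays and deposited 1 Agilent Feature Extraction file per array, whose headers name version 10.7.3.1 (10.5.1.1 in the submitters' processing notes) and genome build mm8. The columns used from the deposited files were mean and local background intensity, flags and the log10 ratio. A deposited value table holds log10 ratios that differed from those of the scanner files, turned to Lats2-/- over Lats2+/+, by at most 0.0050. These values are background-subtracted and dye-normalized by the software and were used as an alternative, with log2 values computed from them.

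Intensities were corrected with normexp (offset 50) and normalized by loess within each array in limma 3.58.1 (R 4.3.3), with control spots and 860 spots with outlier flags given no weight. Ratios were turned to Lats2-/- over Lats2+/+, repeat spots of a probe were averaged, and so were arrays hybridised with the same 2 extracts. Levels per extract come from the same arrays after Aquantile scaling. Between 52.9% and 61.3% of probes were well above background in an array channel, no gene spot was saturated, and the number of litters limits the precision. The 3 litter ratios were tested against 0 with lmFit and eBayes over all kept probes, two-sided, with Benjamini-Hochberg adjustment. The fit was tested on simulated data. Where 1 extract of a litter was not well above background on any array, the ratio is given as a bound. On each array the signal of that extract was raised to the lowest signal well above background in its genotype's channel, if it was below that. Where it was not below, the bound equals the measured ratio, as for Mest and Peg3 in litter 112. Symbols were those of the files, with current names through RefSeq accessions (the files call Meg3 Gtl2).

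Named were all 10 genes with each probe, their neighbours as listed, and of the other imprinted genes those at an unadjusted limma p under 0.05, at 2-fold in 1 direction in all 3 litters, or at 4-fold in any litter. The genes and the lists were chosen with earlier results of these data known, so no test over a list is given. Alternatives changed the offset, the normalization, the probe filter, the probe of a gene, the arrays of litter 121, the litters used, the replicate block, the slide, the test and, chosen after seeing the data, the sign of litter 121.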

Additional observations from a re-analysis of the deposited data

How the results depend on the processing

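No gene of the imprinted set passed an adjusted p of 0.05 in any of the 18 alternatives (limma's or the t-test's, lowest adjusted p 0.063), a count that leaves out the further imprinted genes. Over all kept probes the count was 0 in all but the fits over single arrays: 341 with litter as a random block, 203 when dye was added to it and 717 for slide as a random block. At an unadjusted p under 0.05 the count of 1 gene (Sgce) became 4 in each of these random-block fits, where the arrays of a litter add to the degrees of freedom and the share of all kept probes rose too, from 6.84% to 13.2%, 12.6% and 17.8%. It was 3 with slide as a block (Mest, Peg3 and Plagl1, without Sgce; 6.8% of all kept probes), and between 0 and 3 when a litter was left out (5.06%, 5.53% and 6.43% without litters 112, 116 and 121), with Dlk1 and Plagl1 joining Sgce without litter 121. With the processed signals or the value table it was 1 as well, but that gene was Peg3 (6.64% of all kept probes). The strict filter left 7 genes, dropped Peg3 and Mest, lowered the count with 1 sign in all litters from 2 to 1, turned the median of litter 116 to -0.51 and moved those of litters 112 and 121 to 0.42 and 0.29. The median of litter 112 was 0.47 with the processed signals or the value table and 0.25 with offset 16. Without a filter on dim probes all 10 genes had a value, 3 had 1 sign in all litters, and the medians of litters 112, 116 and 121 were 0.12, 0.17 and 0.60. The mean of H19, near 0, changed sign to 0.0062 with offset 16, 0.022 with litter as a random block (0.0019 once a dye term was added), and 0.63 with either slide block, and ranged from -1.29 to 1.29 when a litter was left out. That of Dlk1 became -0.17 with slide as either block and ranged from -0.42 to 3.94 without 1 litter, that of Plagl1 from -1.61 to 1.67, that of Peg10 from -0.037 to 0.25 (0.36 with the processed signals or the value table) and that of Ndn from -1.04 to -0.061. With the sign of litter 121 turned, an alternative chosen after seeing the data, its median became -0.91, 2 genes passed at an unadjusted p under 0.05 (Dlk1 and Plagl1; 4.77% of all kept probes), and the means became -1.36 for Mest, -0.73 for Peg3, -2.49 for Plagl1, 0.47 for Ndn, -0.036 for Peg10, 4.05 for Dlk1, -1.71 for H19, 0.48 for Grb10 and 0.27 for Sgce. Without the replicate block, with 3 Lats2-/- set against 3 Lats2+/+ extracts, Sgce alone passed at an unadjusted p under 0.05 (limma, mean 0.46) and the count of all kept probes at that p was 555 in place of 1549. The means of Grb10 and Sgce kept their sign in every alternative that gave a value, and those of Mest, Peg3 and Ndn in all but the turned one. In all, 3 litters, 1 of them on a slide of its own, limit what can be called, and so does the signal near background of Peg10, of Peg3 in litters 112 and 116, and of Mest, H19 and Igf2 in litter 112.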
